A study of Homo sapiens with 2 samples.

Results

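The immediate early genes outside the AP-1 family were examined in nascent RNA of untreated BJ cells, a long-established line of human skin fibroblasts. The genes were IER2, IER3, IER5, EGR1, NR4A1, KLF4, KLF6, KLF10, MYC and ZFP36, listed by name as serum-inducible genes, and all 10 had a value among the 12353 genes of the table. Ranks, percentiles and the median of all genes were taken over these 12353, and genes without a value have no place in them. The assay was GRO-seq (global run-on sequencing), in which engaged RNA polymerases in isolated nuclei extend their transcripts with a brominated nucleotide and the labelled RNA is captured and sequenced. The nuclei ran on for 5 min at 30 °C from cells kept in medium with 10% serum, and 2 libraries from biological replicates form the only group. No stimulus, starvation or second condition was part of the design, so these are levels in culture with serum and not responses. The unit is FPKM, fragments per kilobase of gene scaled to library size, as made by the authors. The depth is unknown, since the file gives no read counts. The libraries are called a and b after the letters of their columns, which do not say which replicate number each one is. In bulk cells, fewer cells transcribing a gene and less transcription per cell cannot be told apart.

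Primary response genes are switched on by growth factors, serum or stress without the need for new protein. Signalling through ERK and through the actin cytoskeleton reaches serum response factor (SRF), which binds CArG boxes together with either the ternary complex factors of the ELK family or the actin-regulated MRTF coactivators, while other signals act through CREB at cyclic AMP response elements. The products are mostly transcription factors and regulators of mRNA decay or survival, and many of these transcripts are short-lived, so that nascent RNA and mature mRNA can differ widely. In fibroblasts these genes are the classical markers of the return from quiescence into the cell cycle.

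The 10 genes had a median of 76.2 ± 4.29 FPKM (SD over the 2 libraries, n = 2), against 11.7 FPKM for the median of all genes, a ratio of 6.51. Of the 10, 8 lay above the median of all genes, as 50.0% of all genes do by definition, and 6 lay in the top 10.0% of genes, which began at 40.3 FPKM. These 6 were IER3, IER2, KLF6, IER5, ZFP36 and MYC. EGR1 and KLF10 stood between the median and that limit, and KLF4 and NR4A1 stood below the median. The list is therefore not of one level: its highest member exceeded its lowest 69.6-fold in library a and 67.9-fold in library b. The SD of the log2 levels was 1.999 among the 10 genes and 1.47 among all genes.

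**Figure D1:**
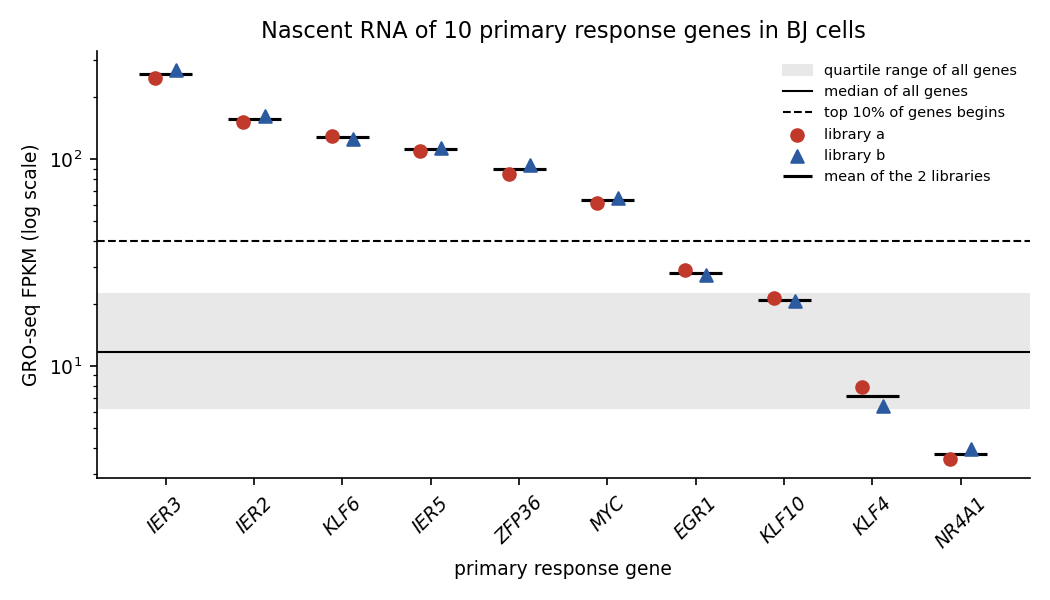
Nascent RNA of the 10 primary response genes, with FPKM on a log axis, a circle for library a, a triangle for library b and a bar for their mean; the grey band spans the quartiles of all genes, the solid line their median and the dashed line the start of the top 10%. IER3 to MYC lie above the dashed line in both libraries, and KLF4 and NR4A1 lie below the median in both.

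The IER genes took 3 of the 4 highest places in the list. IER3, an immediate early regulator of apoptosis and survival signalling, had 247 FPKM in library a and 269 FPKM in library b and ranked 85 of all genes. IER2, a nuclear protein linked to transcription and cell motility, had 151 and 161 FPKM and ranked 155. IER5, a nuclear regulator that works with the phosphatase PP2A and heat shock factor HSF1, had 109.6 and 114 FPKM and ranked 255. The values of these 3 genes did not overlap, and the order IER3, IER2, IER5 was the same in both libraries. The relative IER5L, which shares its family with IER2 and IER5, had 149 and 165 FPKM. IER2 overlapped IER5L in its values, with a ratio of 1.01 in library a and 0.976 in library b, whereas IER5 was lower than IER5L in both, with ratios of 0.734 and 0.690. The antisense RNA gene IER3-AS1 overlaps IER3 in the RefSeq annotation and has no value of its own. Whether the counting used strand is not stated in the notes used here, so reads from this pair cannot be told apart.

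EGR1 encodes a zinc finger transcription factor and is among the most used reporters of ERK signalling. It had 29.1 FPKM in library a and 27.6 FPKM in library b, at rank 2182 and percentile 82.3 of all genes. It was lower than the IER genes, KLF6, ZFP36 and MYC in both libraries. MYC, the next gene above it, exceeded it 2.11-fold in library a and 2.35-fold in library b. Within its own family EGR1 was the higher gene: EGR2 had 5.91 and 7.05 FPKM, and EGR3 and EGR4 had no value. EGR1 exceeded EGR2 4.92-fold in library a and 3.91-fold in library b. NAB1 and NAB2 encode corepressors that bind EGR proteins, and NAB2 is itself induced by EGR1. EGR1 was 0.491 and 0.492 times NAB2 (59.2 and 55.95 FPKM) and 3.32 and 3.71 times NAB1 (8.75 and 7.42 FPKM).

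The upstream region of EGR1 is shown because it holds CArG boxes, the sites of SRF, and a match to the site that EGR proteins themselves bind. In the sequence, the 250 bases before the annotated start on the plus strand (GRCh38.p14, chr5:138465229-138465478, RefSeq), capitals mark in 5′ to 3′ order the EGR-type site GCGNGGGCG and a pair of CArG boxes.
EGR1 upstream region: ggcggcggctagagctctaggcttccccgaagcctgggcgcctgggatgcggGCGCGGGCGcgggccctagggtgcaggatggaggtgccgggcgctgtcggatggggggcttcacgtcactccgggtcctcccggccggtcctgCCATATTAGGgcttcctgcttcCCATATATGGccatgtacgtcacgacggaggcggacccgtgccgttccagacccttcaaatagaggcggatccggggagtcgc
The CArG boxes lie 105 to 96 and 83 to 74 bases before the start, and the EGR-type site 198 to 190 bases before it. A CArG box was found, searching both strands of windows of the same length, in 1.44% of the 27305 RefSeq genes with at least 1 window. Of the 7 listed genes with a window EGR1 alone held one. Among the other primary response genes 1 of the 23 with a window held one, SRF itself, and of the AP-1 genes 0 of 6 did. These are letters in a window of 250 bases and say nothing about sites farther away or about binding.

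NR4A1 encodes an orphan nuclear receptor, also called NUR77, which is induced within minutes in many cell types. It was the lowest of the 10 genes, with 3.55 FPKM in library a and 3.96 FPKM in library b, at percentile 12.3 of all genes. Its relative NR4A2 had 9.40 and 7.60 FPKM, so NR4A1 was 0.378 and 0.521 times NR4A2, and NR4A3 had no value. All NR4A values lay below the median of all genes in both libraries. RefSeq gives NR4A1 more than 1 annotated start, and 3 RefSeq genes overlap it, among them the antisense gene NR4A1AS, none of which has a value. The authors' gene lengths are not given, and the FPKM of a gene with several starts depends on the length used.

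The KLF genes encode zinc finger factors that bind GC-rich and CACCC sites, and the 3 listed members spread over most of the range. KLF6, a widely expressed activator, had 130.1 FPKM in library a and 126 FPKM in library b and ranked 204. KLF10, known as an early gene of TGF-beta signalling, had 21.3 and 20.5 FPKM and ranked 3327. KLF4, a growth-arrest and reprogramming factor, had 7.89 and 6.39 FPKM and ranked 8720. KLF6 was 16.5 and 19.6 times KLF4 and 6.10 and 6.12 times KLF10, so no 2 of the 3 overlapped. Of all 17 KLF genes searched, 12 had a value, with a median of 14.9 FPKM; 7 of the 12 lay above the median of all genes and 3 in the top 10%. KLF6 was the highest of the 12 in both libraries. It was followed by KLF2 (98.1 and 83.4 FPKM), a factor that is itself an early gene in many cells, and by KLF7 (47.2 and 47.8 FPKM). KLF5 (24.3 and 24.5 FPKM) was next, just above KLF10, and KLF3 (17.3 and 16.1 FPKM), a repressor, lay just below KLF10. KLF9 (12.3 and 13.8 FPKM) and KLF11 (12.2 and 10.5 FPKM), the closest relative of KLF10, stood near the median gene. KLF4 came below these, above KLF13 (4.35 and 3.87 FPKM), KLF16 (3.18 and 3.91 FPKM) and KLF12 (3.33 and 3.34 FPKM). KLF1, KLF8, KLF14, KLF15 and KLF17 had no value.

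MYC encodes a helix-loop-helix factor that drives growth and biosynthesis as a dimer with MAX. It had 61.3 FPKM in library a and 64.9 FPKM in library b and ranked 595. MYC was 4.63 and 4.92 times MAX (13.3 and 13.2 FPKM), and MYCN and MYCL had no value. Of the 9 measured partners and antagonists of the network 3 lay above the median of all genes and 1 in the top 10%, and MYC exceeded each of them in both libraries. MLX, the partner of the glucose-responsive MLXIP, was nearest (47.3 and 47.7 FPKM), followed by the antagonist MXD3 (35.1 and 35.3 FPKM). The repressors MXI1 (10.1 and 12.0 FPKM), MNT (10.2 and 10.8 FPKM), MXD4 (6.17 and 5.13 FPKM) and MXD1 (5.10 and 4.11 FPKM), the MAX partner MGA (6.20 and 4.92 FPKM) and MLXIP (4.71 and 4.51 FPKM) were lower, and MLXIPL had no value. Among 15 genes commonly listed as MYC targets, 14 had a value and all 14 lay above the median gene, 7 of them in the top 10%. They ranged from the nucleolar gene NCL (122 and 97.9 FPKM), LDHA of glycolysis (84.3 and 87.4 FPKM) and the nucleolar gene NOP56 (81.0 and 84.5 FPKM) to the transferrin receptor gene TFRC (14.1 and 13.4 FPKM). CCND2 had none. Many of these are growth genes of any dividing cell, and their relation to MYC was not tested.

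ZFP36 encodes tristetraprolin, which binds AU-rich elements in short-lived mRNAs and speeds their decay, including decay of other early response transcripts. It had 85.0 FPKM in library a and 93.6 FPKM in library b and ranked 343. Its relatives, which bind the same elements, had nearly the same levels: ZFP36L1 had 91.5 and 91.3 FPKM, and ZFP36L2 had 84.0 and 81.7 FPKM. ZFP36 overlapped ZFP36L1, with ratios of 0.9295 and 1.03, and was above ZFP36L2 by 1.01-fold in library a and 1.15-fold in library b. The mean log2 ratio to ZFP36L2, 0.11, was smaller than its SD of 0.127, so the gap was within the spread between libraries. Of 12 mRNAs known as targets of tristetraprolin, 8 had nascent values, 5 of them above the median gene. These ran from CDKN1A (125 and 117 FPKM), the prostaglandin synthase gene PTGS2 (66.2 and 68.6 FPKM) and the chemokine gene CCL2 (46.0 and 53.3 FPKM) down to LIF (1.89 and 1.45 FPKM). The cytokine genes TNF and CSF2 and the chemokine genes CXCL1 and CXCL2 had no value.

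**Figure D2:**
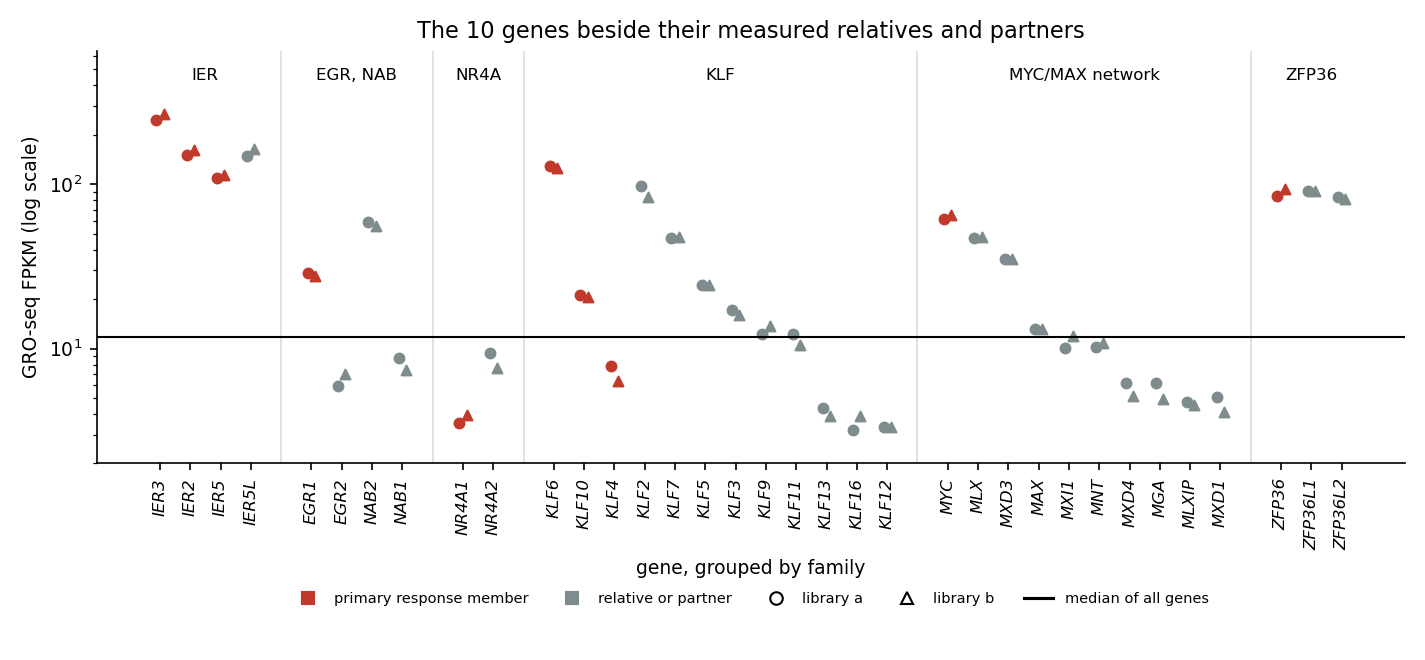
The 10 primary response genes (red) beside their measured relatives and partners (grey), grouped by family, with FPKM on a log axis; circles are library a, triangles library b, and the line is the median of all genes. KLF6 is the highest KLF gene and MYC the highest gene of its network, ZFP36 lies level with ZFP36L1, and NR4A1 lies below NR4A2.

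The order of the 10 genes was the same in both libraries, and the values of no 2 neighbours in that order overlapped. The closest neighbours by the mean log2 ratio were KLF6 and IER5, at ratios of 1.19 (library a) and 1.10 (library b), although IER2 and KLF6 were closer in library a. The IER2 to KLF6 ratio was 1.16 and 1.28, the IER5 to ZFP36 ratio 1.29 and 1.21, the EGR1 to KLF10 ratio 1.36 and 1.34, and the ZFP36 to MYC ratio 1.39 and 1.44. The widest gap was between KLF10 and KLF4, at 2.70 and 3.21. Each of the 9 neighbouring log2 ratios exceeded 2 SD over the libraries. With 2 libraries the smallest two-sided p of a sign-flip test is 0.5, and no p was computed.

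**Figure D3:**
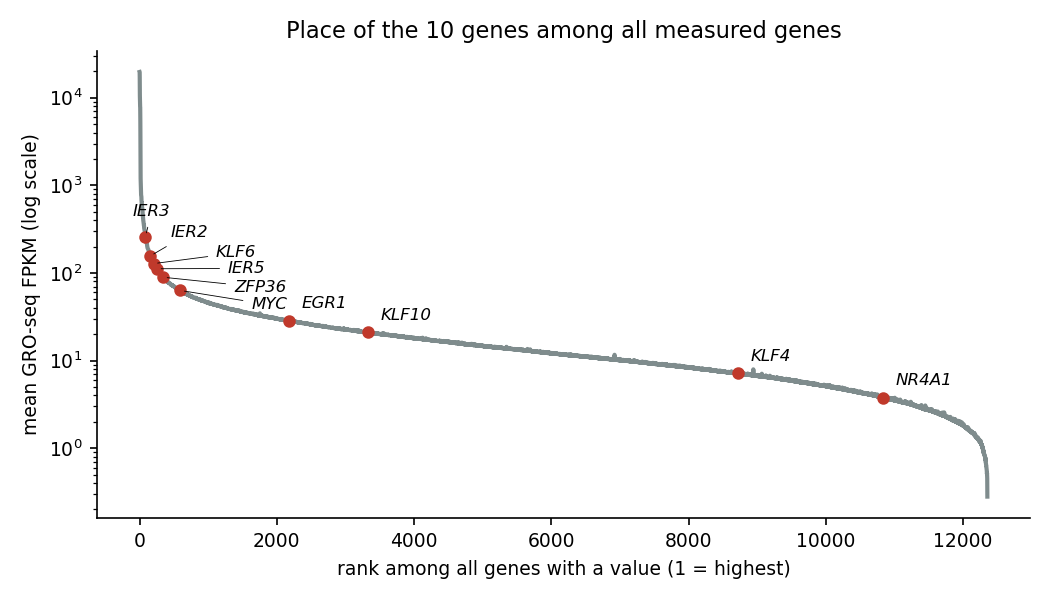
All 12353 genes ordered by level, with the rank on the x axis and mean FPKM on a log y axis; the red points are the 10 primary response genes. IER3, IER2, KLF6, IER5, ZFP36 and MYC, at ranks 85 to 595, sit on the steep left end of the curve, and NR4A1, at rank 10838, lies on the right slope.

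The libraries gave close values for these genes. None of the 10 differed between libraries by more than 1.5-fold, as 2.16% of all genes did, and 1 differed by more than 1.2-fold, as 21.3% of all genes did, after the median shift of all genes was removed. That gene was KLF4, at 1.22-fold, with the higher value in library a. It stands in the second lowest of 5 equal level classes, in which 26.2% of genes differed by more than 1.2-fold. The most closely repeated were KLF6 at 1.02-fold and KLF10 at 1.03-fold. The median difference over the 10 genes was 1.07-fold, against 1.10-fold over all genes. In the highest level class, which held 7 of the 10, the median was 1.07-fold and 9.79% of genes differed by more than 1.2-fold. Relative to all genes 6 members were higher in library b and 4 in library a, with a median log2 difference of 0.08.

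**Figure D4:**
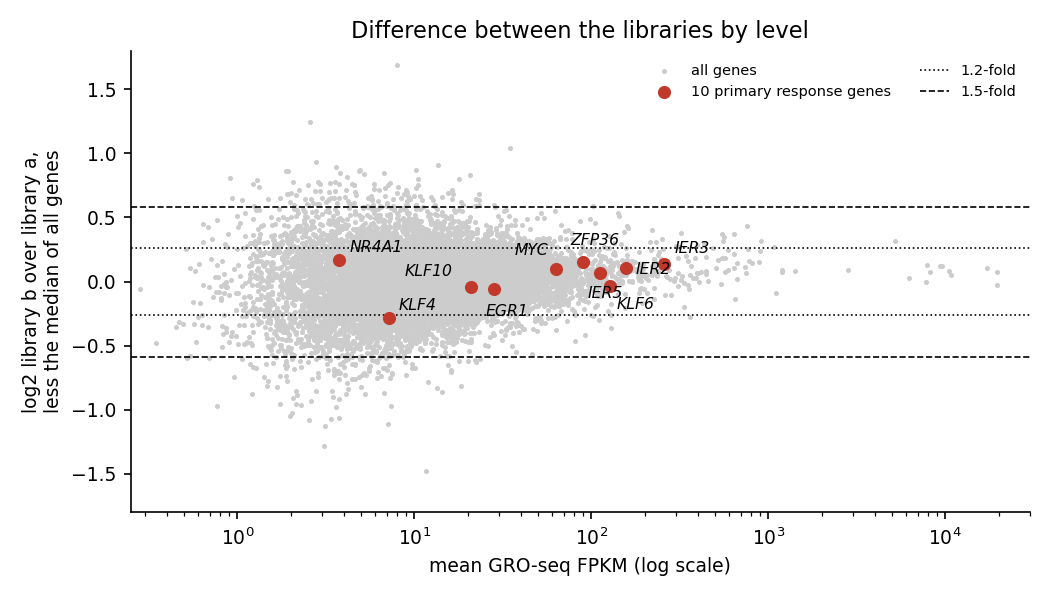
Difference between the libraries, as log2 of library b over library a less the median of all genes, against mean FPKM on a log axis, for all genes (grey) and the 10 primary response genes (red); dotted and dashed lines mark 1.2-fold and 1.5-fold. Only KLF4 lies past a dotted line, and none of the 10 lies past a dashed one.

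The region just before the start is shown for the listed genes with a RefSeq window, because a TATA motif at that distance differed among them. Each stretch is the 50 bases before the annotated start, 5′ to 3′ on the gene's strand (GRCh38.p14), in order of nascent level, and capitals mark the letters TATAA on either strand.
IER2 (chr19:13150361-13150410, plus strand): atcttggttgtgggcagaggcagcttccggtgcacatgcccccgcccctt
KLF6 (chr10:3785210-3785259, minus strand): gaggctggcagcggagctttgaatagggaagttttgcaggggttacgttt
IER5 (chr1:181088650-181088699, plus strand): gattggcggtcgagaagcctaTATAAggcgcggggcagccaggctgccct
ZFP36 (chr19:39406797-39406846, plus strand): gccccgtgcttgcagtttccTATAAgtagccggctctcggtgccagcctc
EGR1 (chr5:138465429-138465478, plus strand): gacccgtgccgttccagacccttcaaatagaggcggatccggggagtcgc
KLF4 (chr9:107489770-107489819, minus strand): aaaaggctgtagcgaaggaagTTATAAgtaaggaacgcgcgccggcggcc
NR4A1, first start (chr12:52022782-52022831, plus strand): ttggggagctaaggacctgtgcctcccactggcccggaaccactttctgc
NR4A1, second start (chr12:52037665-52037714, plus strand): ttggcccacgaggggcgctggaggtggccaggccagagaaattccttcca
IER3, KLF10 and MYC are named only. TATAA stood in IER5, ZFP36 and KLF4, in each between 30 and 24 bases before the start, and anywhere in the 250 bases in 22.5% of the 27305 genes with a window. In KLF4 the matches on both strands overlap, which gives the longer capital run. The genes with the motif, at 112, 89.3 and 7.14 FPKM on average, spread across the range of the list, and so did those without it.

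Other motifs in the 250 bases were shared by some of the 7 genes. The GC box GGGCGG stood in IER2, KLF6, ZFP36, KLF4 and the second NR4A1 window, that is in 5 of 7 genes, against 46.2% of all genes with a window. The EGR-type site GCGNGGGCG stood in EGR1, KLF4 and KLF6, against 10.1% of genes, and in KLF4 and KLF6 it overlaps a GGGCGG match. The E-box CACGTG, which MYC and MAX dimers can bind, stood in KLF4 and KLF6, against 7.73% of genes. The ETS-type core CGGAAG stood in IER2 and ZFP36, against 19.4% of genes, and in both genes one match overlaps a GC box. Only this exact form was searched, so GGAA with other flanking bases was not counted. The EGR1 sequence above holds ttcc, which is GGAA on the other strand, between its CArG boxes. The half-site TGACG of cyclic AMP response elements stood in EGR1, IER2 and KLF4, against 24.9% of genes. Both strands were searched, and in these counts and shares alike a gene with several windows was counted once, as holding a motif if any of its windows did. IER5 held TATAA as its only match, and the first NR4A1 window held none of the 7 motifs.

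**Figure D5:**
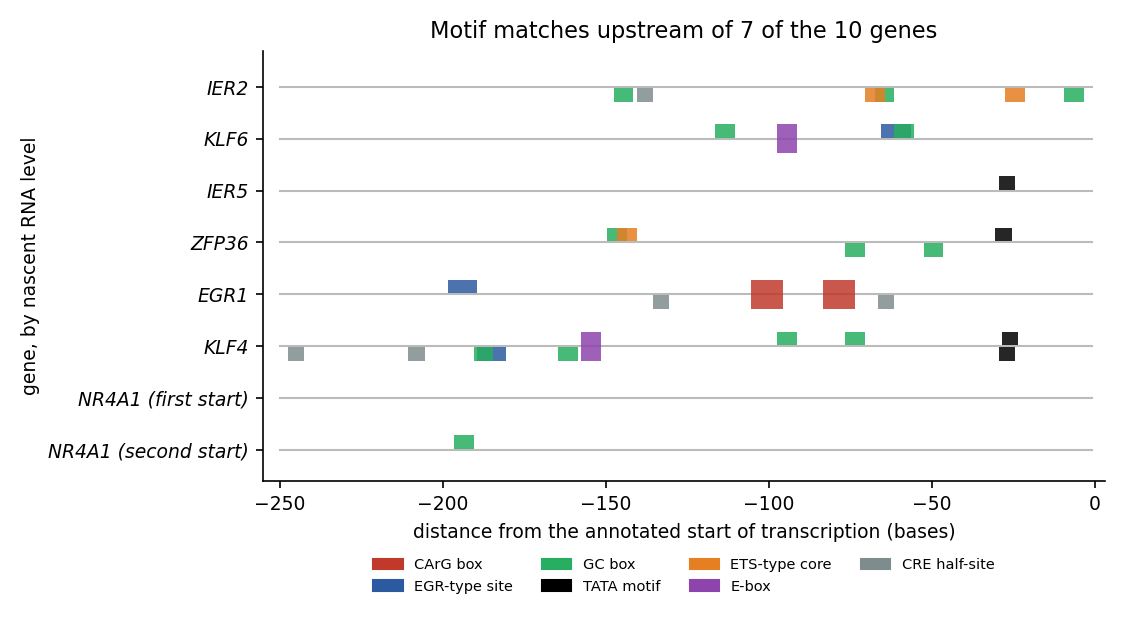
Motif matches in the 250 bases before the annotated start of 7 of the 10 genes, ordered from the highest to the lowest nascent level; the x axis is the distance from the start in bases, boxes above a line are matches on the gene's strand, below it on the other strand, and across it on both. EGR1 holds the CArG boxes, and TATA motifs lie close to the start of IER5, ZFP36 and KLF4.

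The factors that act upstream had lower levels than most of the 10 genes, and CRTC2, the highest of them, lay below 7 of the 10. All 11 searched had values, with a median of 7.84 FPKM; 4 lay above the median of all genes and 0 in the top 10%. SRF had 18.1 and 16.0 FPKM, so EGR1 was 1.60 and 1.72 times SRF and MYC 3.38 and 4.06 times. Its coactivator gene MRTFA had 13.6 and 15.5 FPKM and MRTFB 3.28 and 2.84 FPKM. Of the ternary complex factors ELK3 had 12.3 and 11.7 FPKM, ELK1 had 7.62 and 6.87 FPKM and ELK4 had 4.19 and 4.44 FPKM. CREB1 had 7.94 and 7.74 FPKM and its relative ATF1 5.31 and 5.32 FPKM. The CREB coactivator CRTC2 had 25.6 and 25.9 FPKM, above CRTC3 (8.60 and 9.35 FPKM) and CRTC1 (4.17 and 4.03 FPKM). These factors are controlled largely by phosphorylation and location, which nascent RNA does not measure.

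Early genes beyond the 10 were mostly above the median gene as well. Of 26 further primary response genes 25 had a value, with a median of 69.2 FPKM; 23 lay above the median of all genes and 15 in the top 10%, against 8 and 6 of the 10. The matricellular gene CCN1 (1164 and 1224 FPKM) and the inhibitor genes ID1 (841 and 926 FPKM) and ID3 (736 and 815 FPKM) led them, and the growth factor gene HBEGF was lowest (9.32 and 11.4 FPKM). ATF3 had no value. Of the AP-1 genes all 7 had values, with a median of 38.3 FPKM, led by JUN (151 and 148 FPKM), FOSL1 (111 and 119 FPKM) and JUNB (66.0 and 64.9 FPKM). FOS, which is induced together with EGR1 after serum, was their lowest, at 5.49 and 6.34 FPKM, and EGR1 was 5.29 and 4.35 times FOS. Thus FOS, NR4A1 and KLF4 lay below the median gene while IER2, IER3 and JUN lay in the top 10%.

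The measured neighbours on the chromosome were compared with each of the 10 genes. The nearest gene with a value on each side was taken from the RefSeq order, which gave 20 neighbours, of which 16 (80.0%) were lower than the listed gene and 4 higher. The 10 genes stood on average at percentile 78.4 of all genes, so their neighbours were lower about as often as genes in general. Both neighbours were lower for 7 of the genes, IER3, IER2, KLF6, IER5, ZFP36, MYC and EGR1. IER3 stood above FLOT1 (79.1 and 78.9 FPKM) and DDR1 (6.05 and 5.88 FPKM), and IER2 above STX10 (14.4 and 16.6 FPKM) and CACNA1A (1.30 and 0.810 FPKM). MYC stood above LRATD2 (1.59 and 1.98 FPKM) and CYRIB (18.7 and 15.0 FPKM), and EGR1 above REEP2 (5.11 and 4.39 FPKM) and ETF1 (17.9 and 17.0 FPKM). ZFP36 stood above MED29 (32.7 and 28.6 FPKM) and PLEKHG2 (29.2 and 27.4 FPKM), both on its own strand. KLF10 lay below AZIN1 (26.4 and 22.8 FPKM), and KLF4 above ACTL7A (5.43 and 5.67 FPKM) but below RAD23B (43.2 and 37.9 FPKM). NR4A1 lay below both TAMALIN (4.31 and 4.90 FPKM) and ATG101 (75.03 and 81.2 FPKM). Of the 20, 6 are also the nearest RefSeq gene of any kind. For the rest the nearest is a noncoding gene or pseudogene without a value, and further genes may lie between.

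The genes with the most similar level were found for each member as the smallest Euclidean distance in log2(FPKM + 0.1) over the 2 libraries, which with 1 condition compares levels only. For IER2 it was the ribosome-associated gene RACK1 (152 and 160.0 FPKM, distance 0.0105), and for IER5 the ribosomal protein gene RPL27 (109.4 and 113 FPKM, 0.0101). For IER3 it was the histone variant gene H3-3B (262 and 266 FPKM, 0.0844), for KLF6 the splicing regulator gene HNRNPA2B1 (133 and 127 FPKM, 0.0353) and for MYC the nuclear receptor gene NR2F2 (61.7 and 65.2 FPKM, 0.0115). ZFP36 stood beside PSMC3IP (84.3 and 93.8 FPKM), EGR1 beside PI4K2B (28.9 and 27.5 FPKM), KLF10 beside the insulin receptor substrate gene IRS1 (21.3 and 20.6 FPKM), KLF4 beside OSGIN1 (7.90 and 6.36 FPKM) and NR4A1 beside the adenylate cyclase gene ADCY7 (3.57 and 3.97 FPKM).

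The cells carried fibroblast markers. All 13 fibroblast markers had values, with a median of 66.3 FPKM and 11 of 13 above the median gene, led by COL1A1, VIM and COL1A2 and with the matrix gene DCN lowest (6.99 and 7.69 FPKM). Markers of other cell types had fewer values, although some were high. Of the epithelial and keratinocyte markers 3 of 7 had values, KRT18 (76.2 and 77.2 FPKM, in the top 10%), KRT8 (28.3 and 30.4 FPKM) and CDH1 (1.48 and 1.5 FPKM). The leukocyte list had 2 of 6, CD68 at 112 and 116 FPKM, also in the top 10%, and CD74 at 13.6 and 10.1 FPKM. The endothelial list had 1 of 6, CLDN5 (7.78 and 7.98 FPKM), and the melanocyte list 3 of 5, PMEL (24.0 and 20.8 FPKM), MITF (10.9 and 8.89 FPKM) and MLANA (4.0 and 5.06 FPKM). The other 15 of these 24 markers, among them EPCAM, KRT5, PECAM1, VWF, PTPRC, CD3E and TYR, had no value. The 10 primary response genes were 0.081% of the nuclear genes with a value. Together they held 0.314% of the summed FPKM of nuclear genes in library a and 0.323% in library b. IER3, IER2 and KLF6 made up 62.4% and 62.7% of the summed FPKM of the 10 genes.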

How the data were processed

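GRO-seq was done on untreated BJ cells in 2 libraries of 1 group. The authors deposited FPKM values for 12353 Ensembl genes, 1 column a library, with no read counts. The submitters' processing notes name Bowtie2, HTSeq and build hg19 but no versions, and the gene length, the read total, any filter and the strand setting are not given. No value was 0 (the lowest were 0.29 and 0.27), so a gene without a value is described only as having none. No common ratio of the columns stood out (fullest bin 18 of 3328 genes over FPKM 20, neighbouring bins 9.68 on average), so depth could not be recovered and no counting interval is given. Precision is the SD over the libraries, which with n = 2 is itself imprecise.

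Symbols came from an Ensembl name table, which matched 12202 identifiers, and gene classes, gene order and promoters from RefSeq tables on GRCh38.p14. That build differs from hg19, so lengths were not taken from it. Levels were averaged as log2(FPKM + 0.1) over the libraries and ranked over all genes; differences between libraries were centred on the median of all genes. The calculation was tested on simulated data. Analyses used python 3.11.15, pandas 2.3.3, numpy 2.4.6 and scipy 1.17.1, and matplotlib 3.10.9 drew the figures. The genes, the lists and the naming rule (the listed genes, their relatives and upstream factors in full, the 3 highest and the lowest of other lists, neighbours on the chromosome and the gene of most similar level) were chosen with earlier results of these data known. Of the genes this rule selects, 1 is not reported here. The nearest neighbour with a value was used where the nearest gene had none, and the promoter motifs were picked after the values were seen. Alternatives were the pseudocount, a minimum level, the background, the scaling, the mean in place of the median and leaving out each library.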

Additional observations from a re-analysis of the deposited data

How the results depend on the processing

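Each result was recomputed under the alternatives. The median of the 10 genes lay 2.67 log2 units above the median of all genes, on the scale of log2(FPKM + 0.1). With a pseudocount of 1 it lay 2.59 above, and with the mean in place of the median 2.001. The log2 range of the 10 genes, 6.07, came to 5.77 with a pseudocount of 1 and 6.10 with 0. The count of genes over 1.2-fold apart between libraries, 1, became 0 with a pseudocount of 1 and 0 with quantile normalization, since KLF4 lies close to that limit. Of 132 recomputed values 113 moved by less than the spread between libraries or, for counts, by less than 1.5-fold. The counts above the median and in the top 10% were among them. Some values could hardly move by more. Leaving out 1 library shifts an average of 2 by less than their SD, and a pseudocount hardly alters ranks. Of 80 recomputed percentiles of single genes 13 moved by more than their spread, and none of the 80 moved by over 3.40 points. No paired analysis was possible because there is 1 group and no second condition. Unknown depth and gene length limit how far levels can be compared between genes.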
